A study of Mus musculus with 8 samples.

Results

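The genes described here encode the myosin of the heart muscle: the heavy chains Myh6, Myh7 and Myh7b, the ventricular light chains Myl2 and Myl3, the atrial light chains Myl4 and Myl7, and Mylk3, the kinase of the cardiac regulatory light chain. They are 8 of the 46040 genes in the count table and were chosen by name, with earlier results of these data known. All 8 passed the filter on low counts (at least 1 CPM, a count expressed relative to the total of its library, in 2 or more libraries), as did 13542 genes in all. RNA was sequenced from the LVs of 8 male mice aged 5 to 7 months, on a C57BL/6 background, that had survived 14 days of angII infusion by minipump (0.1 mg/kg/h), a model of pressure overload and LVH. Of the 4 libraries in each group, 1 set was tagged wildtype and represents littermate controls, and the other was tagged VEGFR1_TK -/-, for mice in which VEGFR-1 lacks its intracellular tyrosine kinase domain in every cell that makes the receptor. Both groups received angII, so a comparison with unloaded hearts was not part of these libraries.

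The labels are at odds on the genotype. In all 8 libraries the sample title names the opposite genotype from the tag and the library name. The tags were followed here, giving the control-tagged and the TK-/- tagged libraries. Every difference is TK-/- tagged minus control-tagged and would change sign under the titles. Flt1, the gene of VEGFR-1, had 901, 942, 846 and 1054 counts in the control-tagged libraries and 1766, 1680, 2147 and 2109 in the TK-/- tagged libraries. A count over the whole gene includes the exons that the allele keeps and does not settle which label is right. Libraries held 11449137 to 16239670 counts. The labels name LV tissue, and the library names refer to cardiomyocytes. All 8 cardiomyocyte markers on the list were measured. They summed to 50257 to 69167 normalised CPM in the control-tagged and 63675 to 71515 in the TK-/- tagged group, while endothelial markers summed to 1024 to 1328 and 934.4 to 1062. At an unadjusted p under 0.05 (quasi-likelihood test of edgeR), 3 of 4 endothelial and 1 of 4 leukocyte markers were lower in the TK-/- tagged group. Higher at that p were 2 of 8 cardiomyocyte, 1 of 5 tested atrial and 1 of 3 ventricular markers. Among all 13542 genes tested, 764 were lower and 449 higher at that p. Fibroblast markers summed to 694.0 to 1030 and 414.0 to 883.4, red blood cell markers to 309.0 to 765.9 and 358.6 to 600.8, and adipocyte markers to at most 1.55. Normalised CPM is the CPM after adjustment of the library size by TMM.

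Myosin II is the motor of the sarcomere. Each heavy chain carries an essential and a regulatory light chain on its neck, and its head pulls on actin while it splits ATP. The adult mouse ventricle relies on the fast alpha heavy chain, encoded by Myh6, whereas the slower beta heavy chain, encoded by Myh7, predominates before birth and returns with pressure overload or loss of thyroid hormone. For that reason the share of Myh7 is a classic readout of cardiac remodelling.

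The 3 heavy chain genes each carry a microRNA in an intron, and the mature strands are shown because they tie the genes of the family together in sequence. Mir208a lies in Myh6 (hairpin at chr14:54949060-54949142, minus strand), Mir208b in Myh7 (chr14:54975700-54975776, minus strand) and Mir499 in Myh7b (chr2:155622880-155622958, plus strand), on the strand of the host gene in each case. The sequences and positions are from RefSeq on GRCm38.p6, and capitals mark the seed, bases 2 to 8.
mmu-miR-208a-3p: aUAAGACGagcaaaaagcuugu
mmu-miR-208b-3p: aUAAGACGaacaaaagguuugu
mmu-miR-499-5p: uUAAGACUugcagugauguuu
The seed UAAGACG belonged to 2 of 1679 mature mouse names, the pair from Myh6 and Myh7. The seed of the strand from Myh7b, UAAGACU, had no other holder. Libraries of this kind do not measure mature microRNAs, and the hairpin genes held few reads: 1 to 7 counts per library for Mir208a, 0 to 3 for Mir208b and 0 to 1 for Mir499.

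Myh6 and Myh7 stand next to each other on the minus strand of chromosome 14 (GRCm38), at 54941921 to 54966927 and 54970684 to 54994626. Myh7b lies on chromosome 2 at 155611212 to 155634307, on the plus strand. The 250 bases before the RefSeq start of the neighbouring pair are printed because the balance between these genes is the main readout here. Capitals mark GGAATG, which is the M-CAT core CATTCC on the opposite strand, a motif known to bind TEAD factors.
Myh6, chr14:54966608-54966857, minus strand: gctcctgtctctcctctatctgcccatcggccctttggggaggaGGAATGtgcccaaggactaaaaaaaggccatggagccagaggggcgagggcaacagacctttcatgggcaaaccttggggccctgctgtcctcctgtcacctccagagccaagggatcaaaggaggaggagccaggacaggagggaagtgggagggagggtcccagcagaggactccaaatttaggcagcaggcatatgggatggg
Myh7, chr14:54994627-54994876, minus strand: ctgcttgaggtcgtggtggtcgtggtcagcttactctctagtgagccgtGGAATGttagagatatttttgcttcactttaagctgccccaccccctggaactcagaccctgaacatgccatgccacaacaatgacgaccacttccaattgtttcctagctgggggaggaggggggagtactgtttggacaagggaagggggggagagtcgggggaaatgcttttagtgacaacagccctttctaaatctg
The motif began 206 bases before the start of Myh6 and 201 bases before that of Myh7. CATTCC, searched on both strands, was also present in the windows of Myl3, Myl7 and Mylk3, thus in 5 of 8 members, and in 12.6% of the 32817 mouse promoter windows of the same length. The windows of Myl2 and Myl4 lie 7794 and 26322 bases from the start of their principal transcripts. Of the other motifs searched on both strands, TATAAA (12.4% of all windows), GATAAG (6.55%), AGGTCA (14%) and CANNTG (66.2%), only CANNTG was found in the windows of Myh6 and Myh7. These matches describe letters in a window and not binding.

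On the scale of normalised CPM per kb of principal transcript, which allows levels of different genes to be compared, Myl2 stood highest with a mean of 12936 over the 8 libraries, followed by Myl3 at 8254 and Myh6 at 4947. Myh7 followed at 226.6, Mylk3 at 164.1 and Myh7b at 29.3, and the atrial light chains were lowest, Myl4 at 4.2 and Myl7 at 1.26. The order of Myl2, Myl3 and Myh6 was the same in each of the 8 libraries. Myh7 and Mylk3 were not separated by their spread, because Myh7 lay below Mylk3 in control-tagged replicates 2 and 4 and in TK-/- tagged replicate 2. Together the 8 genes took 4.07% to 5.97% of all counts of a library.

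**Figure D1:**
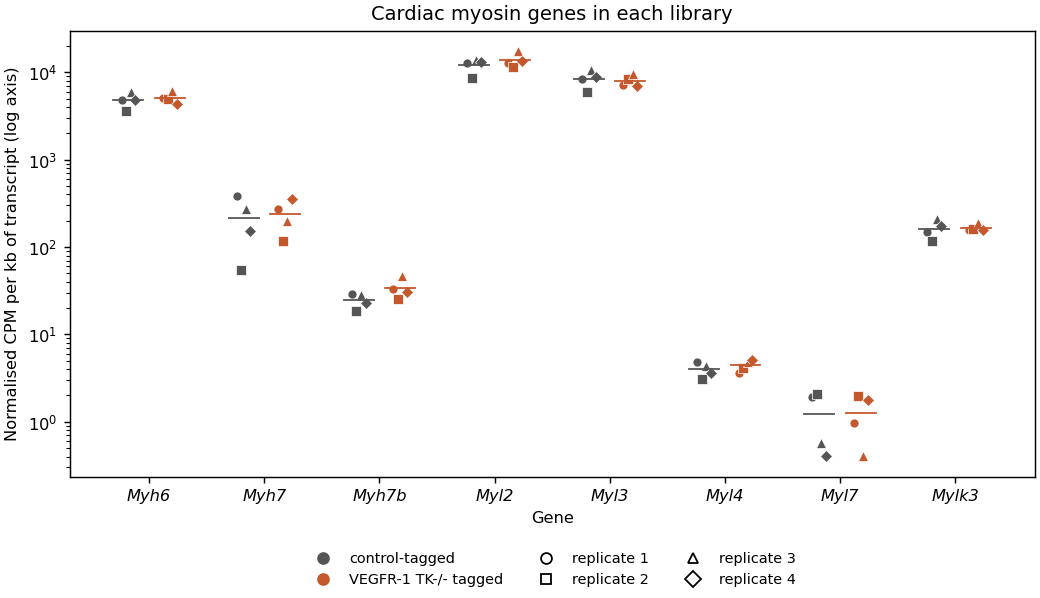
Normalised CPM per kb of transcript (log axis) for each of the 8 genes, with a point per library, shapes for replicates 1 to 4, colours for the genotype tags and a line at each group mean. The groups overlapped for every gene, the points of Myh7 and Myl7 spread most widely, and control-tagged replicate 2 was lowest for 7 of the 8 genes.

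Myh6 was the most abundant member in counts. Its level was 29386, 22322, 36497 and 29718 normalised CPM in control-tagged replicates 1 to 4 and 30700, 29943, 37065 and 26307 in TK-/- tagged replicates 1 to 4. The lowest library was control-tagged and the highest TK-/- tagged, and the groups overlapped in between. The log2 fold change was 0.073 with an SE of 0.21 (FDR = 0.941, quasi-likelihood test of edgeR), and its 95% interval ran from 0.77-fold to 1.45-fold.

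Myh7 differed from the other abundant members by its spread. It measured 2420, 340.1, 1684 and 944.9 normalised CPM in the control-tagged libraries and 1717, 738.8, 1253 and 2198 in the TK-/- tagged libraries. The tags were interleaved along the order of the libraries, with a control-tagged library at each end, and the range within the control-tagged group was 7.11-fold, against 2.97-fold in the TK-/- tagged group. The group means were 1347 ± 902 and 1477 ± 625 normalised CPM (SD, n = 4), for a log2 fold change of 0.13 ± 0.48 (SE, FDR = 0.954, quasi-likelihood test of edgeR). The 95% interval reached from 0.53-fold to 2.27-fold, a range that includes a fold of 2.

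The within-group SD of log2 normalised CPM was 0.997 for Myh7. This was the largest value among the 1710 genes with a mean of at least 100 normalised CPM, whose median was 0.167, and ranked 73 among all 13542 genes tested. The next genes in the order of abundant genes were Postn, which encodes a matrix protein of activated fibroblasts, at 0.952, and Acta2, the smooth muscle actin, at 0.689. Myh6, Myl2 and Myl3 had values of 0.251, 0.282 and 0.291, and ranked 357, 244 and 218 of 1710. The lowest library still held 4686 counts of Myh7, so that counting error was small beside this spread. With each library left out in turn, an alternative added after the values had been seen, the SD of Myh7 was 0.681 to 1.09 and its rank among the abundant genes 1 to 3, the lowest SD and rank being those without control-tagged replicate 2.

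**Figure D2:**
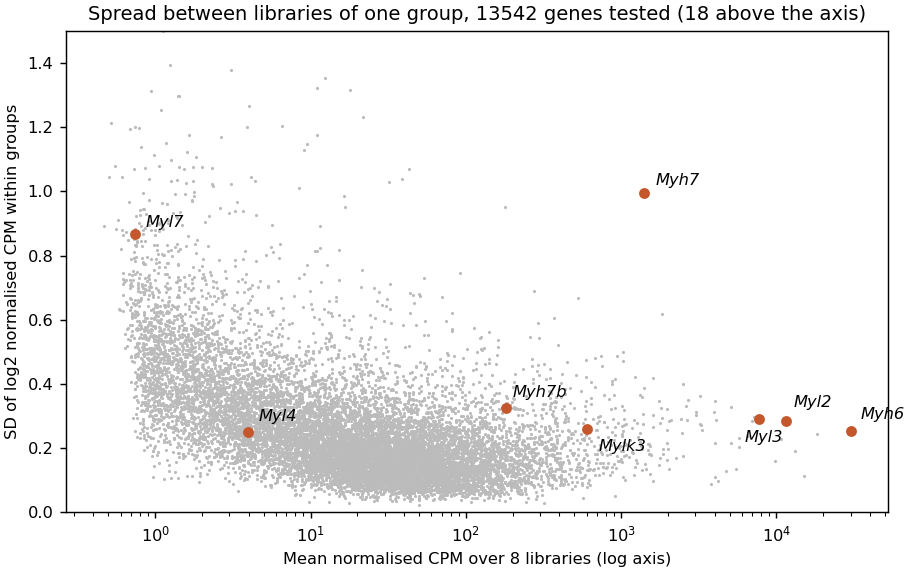
SD of log2 normalised CPM within the genotype groups against mean normalised CPM (log axis) for the genes tested, with the 8 myosin genes in orange and 18 genes beyond the top of the axis. Myh7, at 0.997, lies above every other gene with a mean of at least 100 normalised CPM.

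The isoform ratio needs no normalisation factor, since both counts come from the same library. Per 100 counts of Myh6, the control-tagged libraries held 8.24, 1.52, 4.61 and 3.18 counts of Myh7 and the TK-/- tagged libraries 5.59, 2.47, 3.38 and 8.35. A library with more than 8 stood in each group, and so did a library with fewer than 3. The means were 4.39 ± 2.86 and 4.95 ± 2.62 (SD, n = 4), and the log2 ratios differed by 0.27 ± 0.64 (SE; exact permutation test, 2-sided, p = 0.657). Exact 95% binomial intervals for the share of Myh7 in the sum of Myh7 and Myh6 were narrow, from 1.46% to 1.54% in the lowest library and from 7.62% to 7.80% in the highest, and cover counting error only. The difference between tags turned negative, to -0.15, without control-tagged replicate 2, and to -0.033 without TK-/- tagged replicate 4. Myh6 made up 91.8% to 98.0% of the heavy chain RNA per kb, Myh7 1.47% to 7.53% and Myh7b 0.446% to 0.738%.

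**Figure D3:**
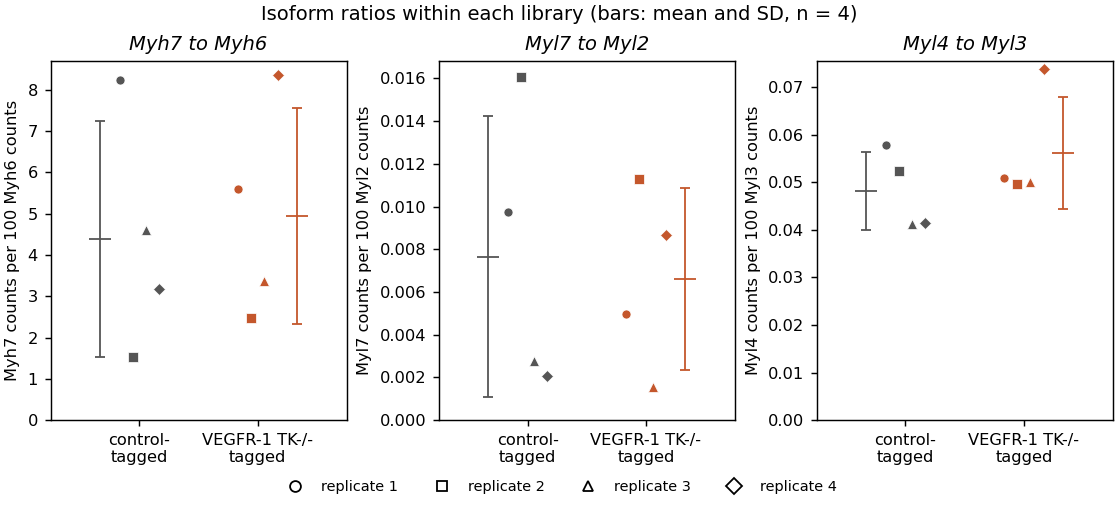
Counts of one isoform per 100 counts of the other in each library, for Myh7 to Myh6, Myl7 to Myl2 and Myl4 to Myl3, with a shape per replicate and the mean and SD of each group (n = 4). The tags overlap in each panel, and TK-/- tagged replicate 4 stands above the other 3 libraries of its group in Myl4 to Myl3.

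Reads of Myh6 and Myh7 can be hard to tell apart, since their principal transcripts were identical at 90.31% of 6040 aligned bases. Of the 6131 windows of 100 bases in Myh7, the read length used, 687 (11.21%) were also present in Myh6, whereas Myh7b had no such window in common with Myh7. How reads with several alignments were counted is not given in the sources used here. In control-tagged replicate 2 the counts of Myh7 were 1.52% of those of Myh6, so a fixed share of Myh6 reads counted as Myh7 could not have exceeded that. Mhrt, an antisense transcript of the Myh7 locus that is known to act on chromatin in cardiomyocytes, shares 484 exon bases with Myh7. It measured 69.7, 62.4, 89.4 and 75.5 normalised CPM in the control-tagged and 80.4, 88.1, 90.4 and 69.6 in the TK-/- tagged libraries, a range of 1.45-fold, and its log2 fold change was 0.15 ± 0.12 (SE, FDR = 0.756, edgeR). Over the 8 libraries Mhrt followed Myh6 (r = 0.90) more than Myh7 (r = 0.23). Gm29015, also antisense to Myh7 with 142 shared exon bases, held 12 to 41 counts. Gm31251, another gene antisense to Myh7, shares 523 exon bases with it, and its counts were not analysed here. Gm49130 shares 114 exon bases with Myh6.

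Myh7b, the ancient heavy chain gene that hosts Mir499, was the member with the smallest p. It measured 177.0, 115.3, 172.3 and 141.2 normalised CPM in the control-tagged libraries and 204.0, 158.4, 286.9 and 190.2 in the TK-/- tagged libraries. TK-/- tagged replicate 2 lay inside the control-tagged range and the other 3 lay above it. The log2 fold change was 0.47 ± 0.18 (SE, unadjusted p = 0.0252, FDR = 0.506, quasi-likelihood test of edgeR), and the exact permutation test gave p = 0.114. Myh7b did not pass the FDR. An unadjusted p under 0.05 was found for 8.96% of all genes tested and for this 1 of 8 members, and for none of the 8 members without control-tagged replicate 2, without control-tagged replicate 4 or without TK-/- tagged replicate 3. As a share of the heavy chain RNA per kb, Myh7b was 0.488% ± 0.0479 in the control-tagged and 0.632% ± 0.0948 in the TK-/- tagged group (SD, n = 4; exact permutation test, 2-sided, p = 0.0571). This share was computed after the levels had been seen, and its p is not adjusted. The 3′ end of Myh7b shares 37 exon bases with Trpc4ap, which lies on the other strand and measured 126.9 to 201.6 normalised CPM.

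Myl2, on chromosome 5 at 122100951 to 122113472 (plus strand), encodes the ventricular regulatory light chain, the target of Mylk3. It measured 11518, 7684, 12163 and 11632 normalised CPM in the control-tagged libraries and 11401, 10203, 15415 and 11982 in the TK-/- tagged libraries. Except for the low control-tagged replicate 2 and the high TK-/- tagged replicate 3, all libraries lay between 10203 and 12163. The log2 fold change was 0.19 ± 0.20 (SE, FDR = 0.808, edgeR).

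Myl3, on chromosome 9 at 110741861 to 110769798 (plus strand), encodes the ventricular essential light chain. Its level was 7899, 5551, 9961 and 8306 normalised CPM in the control-tagged group and 6712, 7861, 8991 and 6591 in the TK-/- tagged group, whose values all lay inside the control-tagged range. Its log2 fold change of -0.073 ± 0.20 (SE, FDR = 0.936, edgeR) was the only negative value among the members.

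Light and heavy chain RNAs kept a narrow relation within the libraries. The summed regulatory light chains (Myl2 and Myl7) were 2.18 to 2.88 times the summed heavy chains per kb, and the summed essential light chains (Myl3 and Myl4) 1.34 to 1.76 times. The essential to heavy ratio was 1.67 ± 0.0778 in the control-tagged and 1.51 ± 0.131 in the TK-/- tagged group (SD, n = 4; exact permutation test, 2-sided, p = 0.0857). The regulatory to heavy ratio was 2.40 ± 0.182 and 2.58 ± 0.282 (exact p = 0.314), and the regulatory to essential ratio 1.44 ± 0.107 and 1.72 ± 0.241 (exact p = 0.114). The groups overlapped in each of these ratios, and the smallest p that 70 splits of 4 and 4 libraries allow is 0.0286. These ratios were computed after the levels had been seen. The p-values are not adjusted.

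**Figure D4:**
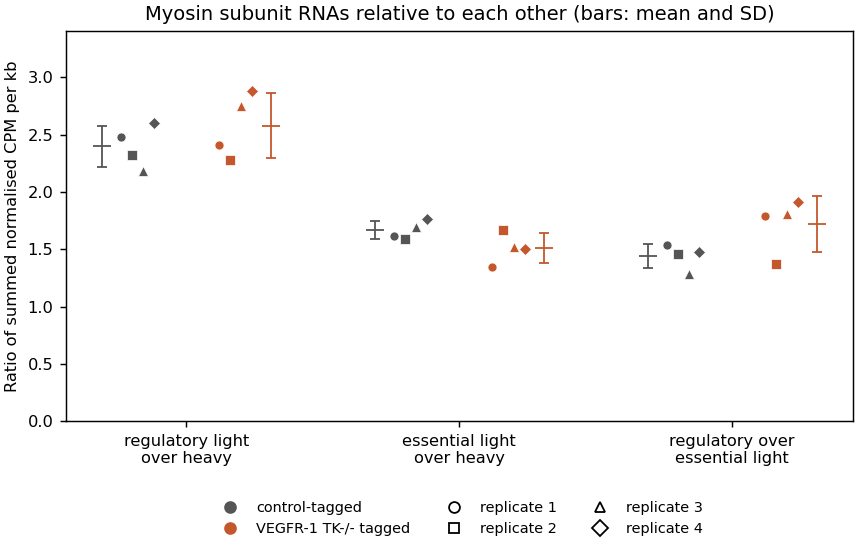
Ratios of summed normalised CPM per kb between the regulatory light chains, the essential light chains and the heavy chains in each library, with a shape per replicate and the mean and SD of each group (n = 4). Regulatory over essential was 1.29 to 1.54 in the control-tagged libraries and 1.37 to 1.91 in the TK-/- tagged libraries.

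The atrial light chains were low, as is usual in ventricular tissue, and Myl7 was close to the limit of detection. Myl4, the atrial essential light chain on chromosome 11 at 104550663 to 104595753 (plus strand), had 61, 40, 61 and 43 counts in the control-tagged libraries and 42, 44, 57 and 61 in the TK-/- tagged libraries. These are 2.90 to 4.57 and 3.41 to 4.86 normalised CPM, and the log2 fold change was 0.15 ± 0.20 (SE, FDR = 0.851, edgeR). The ranges overlapped over most of their length. Per 100 counts of Myl3, the libraries held 0.0578, 0.0523, 0.0412 and 0.0414 counts of Myl4 in the control-tagged group and 0.0508, 0.0497, 0.0501 and 0.0738 in the TK-/- tagged group. The log2 ratio differed by 0.21 ± 0.19 (SE; exact permutation test, 2-sided, p = 0.286).

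Myl7, the atrial regulatory light chain on the same chromosome at 5896637 to 5898782 (minus strand), had 15, 17, 5 and 3 counts in the control-tagged libraries and 7, 13, 3 and 13 in the TK-/- tagged libraries. High and low libraries were present under both tags. The log2 fold change was 0.016 ± 0.58 (SE, FDR = 0.996, edgeR), with a 95% interval from 0.42-fold to 2.43-fold. Per 100 counts of Myl2, the libraries held 0.00975, 0.0161, 0.00276 and 0.00206 counts of Myl7 in the control-tagged group and 0.00499, 0.0113, 0.00154 and 0.00865 in the TK-/- tagged group, and the log2 ratio differed by -0.063 ± 0.96 (SE; exact permutation test, 2-sided, p = 0.943). At this depth a moderate difference in Myl7 was not detectable.

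Of 8 atrial markers, 5 passed the filter and none was called, while Sln (0 to 3 counts), Bmp10 (0 to 2) and Mybphl (0 to 3) did not pass it. Among the 5 tested, 2 were higher and 3 lower in the TK-/- tagged group, with a median log2 fold change of -0.28. Kcnj3, which codes for a potassium channel of the atrium, was the one with an unadjusted p under 0.05. It measured 49.0, 30.1, 39.3 and 38.9 normalised CPM in the control-tagged and 50.1, 70.2, 58.6 and 50.7 in the TK-/- tagged libraries, without overlap, and its log2 fold change was 0.54 ± 0.15 (SE, unadjusted p = 0.00382, FDR = 0.442, edgeR). The summed level of the list, carried by Nppa, was 930.6 to 1444 normalised CPM in the control-tagged and 660.6 to 1573 in the TK-/- tagged group. Myl4 and Myl7 did not rise and fall together over the 8 libraries (Pearson r = -0.035, exact permutation p = 0.931, adjusted 0.931; Spearman rho = -0.21, exact p = 0.619, adjusted 0.619). Ventricular markers summed to 194.8 to 288.7 and 280.0 to 347.6 normalised CPM.

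Mylk3, on chromosome 8 at 85324303 to 85386345 (minus strand), encodes the kinase that phosphorylates Myl2 in cardiomyocytes. It measured 556.1, 435.4, 765.0 and 636.7 normalised CPM in the control-tagged libraries and 587.1, 595.5, 698.3 and 578.1 in the TK-/- tagged libraries, all of which fell inside the control-tagged range. The log2 fold change was 0.039 ± 0.16 (SE, FDR = 0.959, edgeR), and its 95% interval, from 0.81-fold to 1.31-fold, was the narrowest among the members.

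No member was called between the genotype tags, at an FDR under 0.1 with a fold of at least 1.5. The call was made for 0.00738% of the genes tested, which is 1 gene, Flt1. By the likelihood ratio test 53 genes were called and by DESeq2 32, and 0 of the 8 members in either. Groups did not overlap for 4.98% of the genes tested and for 0 of the 8 members. The median log2 fold change of the members was 0.10, beside -0.0012 for all genes. The 95% intervals of Myh6, Myl3 and Mylk3 lay within the 1.5-fold bounds in both directions, and those of Myh7, Myh7b, Myl2, Myl4 and Myl7 did not.

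**Figure D5:**
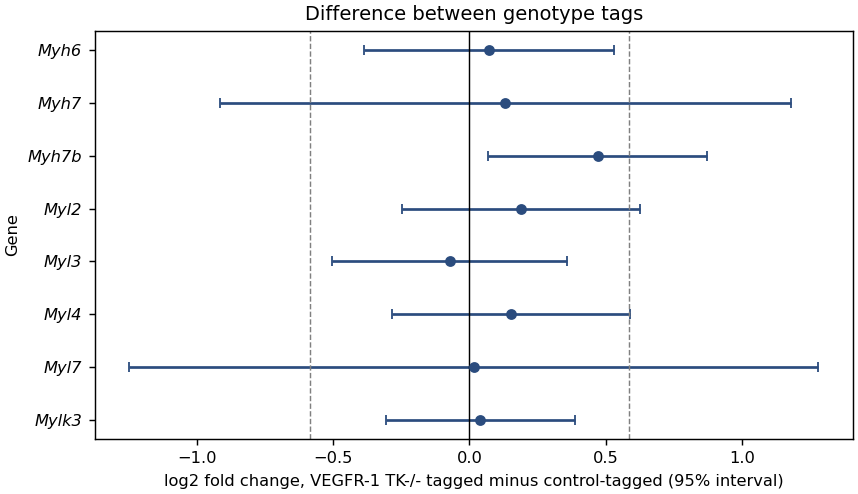
log2 fold change (TK-/- tagged minus control-tagged) of the 8 genes with its 95% interval from the quasi-likelihood fit, with dashed lines at 1.5-fold in either direction. The interval of Myh7b excludes 0 before adjustment, and those of Myh7 and Myl7 are the widest.

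Control-tagged replicate 2 had the lowest level of Myh6, Myh7, Myh7b, Myl2, Myl3, Myl4 and Mylk3 and the highest of Myl7, Acta1 and Xirp2. Its cardiomyocyte markers summed to 50257 normalised CPM, the lowest of the 8 libraries, and its fibroblast (1030), leukocyte (409.5) and red blood cell markers (765.9) to the highest. Control-tagged replicate 3 was close for red blood cell markers (751.5) and higher for endothelial markers (1328 against 1316). The smooth muscle markers of control-tagged replicate 2 (460.4) were the lowest of the control-tagged group. The part of these markers in its low myosin values was not tested. In LV tissue, fewer cardiomyocytes and less RNA per cardiomyocyte cannot be told apart. Relative to the summed cardiomyocyte markers in the same library, a scaling added after the values had been seen, the within-group SD of Myh6 fell to 0.134 and that of Mylk3 was 0.144, while that of Myh7 was 0.905. On that scale Myh6, Myl3 and Mylk3 had log2 differences of -0.030, -0.17 and -0.049, against 0.083, -0.054 and 0.065 without it, and 0 of 8 members separated the groups. The level of Myh6 followed the summed markers over the 8 libraries (r = 0.87), that of Mylk3 with r = 0.85, that of Myh7 with r = 0.65 and that of Myl7 with r = -0.44, as a description over libraries that share their normalisation.

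Among the members, Myh6 ran most closely with Mylk3 (r = 0.94) and Myl3 (r = 0.91), and Myl2 with Myh7b (r = 0.88), over 8 libraries. Myh6 and Myh7 were not opposed in these libraries (r = 0.49). Outside the family, and among 8873 genes with a mean of at least 10 normalised CPM, the pattern most like that of Myh6 was that of Rnf207 (r = 0.99), followed by Adck3, Pink1, Rpl36 and Me3 (r = 0.98 each). For Myh7 these were Aph1a and Phrf1 (r = 0.94 each), Malt1 (r = 0.93), Rpain (r = 0.91) and Nufip2 (r = 0.90). Their own range was small beside that of Myh7, for example 54.6 to 68.9 normalised CPM in Aph1a. For Myl4 they were Rnmtl1, Lzic, Lars, Creld1 and Psmf1 (r = 0.94 to 0.96), and for Myl7 Fam98a, Tspan12, Nlk, Fastkd2 and Twsg1 (r = 0.91 to 0.98). These values of r describe 8 libraries and carry no test.

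Pressure overload is known to raise a set of genes together with Myh7, and 7 of these were listed. None was called, but 2 had an unadjusted p under 0.05, both lower in the TK-/- tagged libraries, beside 8.96% of all genes tested at that p. Under the sample titles, which name the opposite genotype, both would be higher in the VEGFR-1 TK-/- group. Acta1, the skeletal alpha actin of the fetal heart, measured 4102, 6958, 4893 and 3125 normalised CPM in the control-tagged and 1582, 1854, 1456 and 1811 in the TK-/- tagged libraries, which did not overlap. Its log2 fold change was -1.51 ± 0.22 (SE, FDR = 0.152, quasi-likelihood test of edgeR), whereas the likelihood ratio test (FDR = 2.85e-08) and DESeq2 (FDR = 1.53e-09) called it. Ankrd1, a stretch-responsive gene of the sarcomere, had a log2 fold change of -0.82 ± 0.19 (FDR = 0.442, edgeR), also without overlap. The likelihood ratio test (FDR = 0.0137) and DESeq2 (FDR = 0.00725) called it too. Xirp2, which codes for an actin-binding protein of the intercalated disc, had -0.31 ± 0.14 (FDR = 0.559).

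The Myh7 to Myh6 ratio was set beside these genes over the 8 libraries, which are too few to exclude a relation. Control-tagged replicate 2, with the highest Acta1, had the lowest Myh7 to Myh6 ratio. Over the 8 libraries the log2 ratio had a Pearson r of 0.34 with Nppa (exact permutation p = 0.411, adjusted 0.548), 0.38 with Nppb (exact p = 0.359, adjusted 0.548) and -0.37 with Xirp2 (exact p = 0.368, adjusted 0.548), and a Spearman rho of 0.57 (exact p = 0.151, adjusted 0.605), 0.40 (exact p = 0.327, adjusted 0.619) and -0.29 (exact p = 0.501, adjusted 0.619). Nppa and Nppb encode the natriuretic peptides. Without the 2 libraries farthest from the median the r values were 0.19, 0.076 and 0.66. These and the pair of atrial light chains were the 4 relations tested. Relations with Acta1 and Ankrd1 were not pooled, because these genes separated the tags. With values centred on their group means, r was -0.39 for Acta1 and 0.016 for Ankrd1. On the same centred values it was 0.46 for Nppa, 0.53 for Nppb and -0.34 for Xirp2.

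Of 28 other myosin genes and regulators of myosin, 19 passed the filter and none was called. An unadjusted p under 0.05 was found for 2 of the 19, both lower in the TK-/- tagged group, beside 8.96% of all genes tested. Myl6, the essential light chain of smooth muscle and nonmuscle myosin, measured 309.5, 291.4, 444.4 and 290.7 normalised CPM in the control-tagged and 267.7, 222.0, 279.5 and 269.9 in the TK-/- tagged libraries. These did not overlap, and the log2 fold change was -0.36 ± 0.15 (SE, FDR = 0.521, edgeR). Myh9, a nonmuscle heavy chain, had -0.29 ± 0.12 (FDR = 0.528). The next smallest p-values belonged to Myl6b at 0.42 ± 0.21, Myl12b at -0.22 ± 0.12, Myl9 at -0.35 ± 0.22 and Myh10 at -0.14 ± 0.11. The groups did not overlap for Myl6b either, with means of 2.57 (control-tagged) and 3.44 (TK-/- tagged) normalised CPM. Thus 2 of the 19 did not overlap, beside 4.98% of all genes tested. Together, 6 of the 19 were higher and 13 lower, beside 6726 and 6816 of all genes tested, with a median log2 fold change of -0.043. Smooth muscle markers, to which Myl9 belongs, summed to 460.4 to 942.3 normalised CPM in the control-tagged and 315.1 to 590.7 in the TK-/- tagged group, and leukocyte markers to 312.1 to 409.5 and 209.4 to 313.4. Their part in the values of Myl6 and Myh9 was not tested. Myh2 and Myh4, heavy chains of fast skeletal muscle, had 0 counts in every library, which allows up to 3 counts in each, and so had Myh15 and Myl10. The 8 skeletal muscle markers summed to 4.36 to 6.05 and 5.45 to 5.77 normalised CPM.

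Of 8 partners of myosin in the thick filament and M-band, 7 passed the filter and 0 had an unadjusted p under 0.05, with log2 fold changes of -0.12 ± 0.17 (SE) for Obsl1 and 0.078 ± 0.13 for Ttn. Ttn, which encodes the giant spring titin, measured 3711 ± 283 and 3916 ± 158 normalised CPM (SD, n = 4).

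Among 16 regulators known to act on the transcription of the myosin genes, all passed the filter and none was called. Of these regulators 13 were higher and 3 lower in the TK-/- tagged group, beside 6726 and 6816 of all genes tested. Thrb, a receptor for thyroid hormone, the hormone that favours Myh6 over Myh7, had the smallest p. It measured 11.1, 11.6, 13.2 and 11.2 normalised CPM in the control-tagged libraries and 16.9, 16.5, 15.6 and 16.4 in the TK-/- tagged libraries. The groups did not overlap, and the log2 fold change was 0.47 ± 0.11 (SE, unadjusted p = 0.000874, FDR = 0.442, quasi-likelihood test of edgeR). With DESeq2 the FDR of Thrb was 0.072 and with the likelihood ratio test 0.070, and neither called it because its fold was under 1.5. The other thyroid hormone receptor gene, Thra, measured 105.2 ± 24.0 and 99.5 ± 11.4 normalised CPM (SD, n = 4). Gata4 and Nkx2-5, cardiac transcription factors, had log2 fold changes of 0.15 ± 0.11 and 0.14 ± 0.10, and Tead1, which binds the M-CAT motif, 0.025 ± 0.12 (SE, FDR = 0.968, edgeR).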

How the data were processed

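Raw counts per gene were analysed for 8 libraries, 4 per genotype tag. The authors trimmed reads (Trim Galore 0.4.4, Phred cutoff 30), aligned them to GRCm38 (STAR 2.5.4b) and counted them on GENCODE M16 genes with featureCounts. They deposited whole-number counts, not normalised. STAR kept reads with up to 10 alignments, and how featureCounts treated those with several, and strand, is not given in the sources used here. Counting without strand would add antisense reads to a gene. The labels describe depletion of ribosomal RNA and the methods poly-A selection. The p-values measure only the spread between these libraries.

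Genes that reached 1 CPM in 2 or more libraries entered an edgeR 4.0.16 fit (R 4.3.3, TMM factors, quasi-likelihood F test, no covariates), with Benjamini-Hochberg FDR over all 13542 genes. A call needed an FDR under 0.1 and a fold of at least 1.5. An SE is the fold change divided by the square root of F. Log2 normalised CPM used a prior count of 2. Ratios and single levels were compared by exact permutation over 70 splits (Python 3.11.15). Levels per kb used the principal transcript of each gene in GENCODE M21 on GRCm38, which also gave coordinates. Tested on simulated counts of 13378 genes with 198 changed, the fit recovered 82.8% of changes of log2 size 1 and 99% of size 2, with 11.3% false calls. The simulated counts were independent between genes and drew on the dispersions of the fit, without differences in TMM factor. They held 198 changed genes, which eases the FDR of each, whereas 1 gene was called in the real libraries. There Acta1, at a log2 fold change of -1.51, had an FDR of 0.152. Recovery can therefore be lower in the real libraries. At 11449137 to 16239670 counts per library, Myl7 rested on 3 to 17 counts.

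The fit was repeated with DESeq2 1.42.0, the likelihood ratio test, RLE factors, total counts, other filters, a robust fit, an FDR under 0.05, each library left out and the replicate number as a block. The genes described and the gene lists were chosen with earlier results of these data known. Named in the text are all members, from the other myosin genes the 6 with the smallest p, from the other lists the 3 with the smallest p, genes that overlap members, the most similar genes, and markers as sums. Thra, Tead1, Kcnj3, Postn, Acta2, Myh15, Myl10 and Myh2 were named after their values were seen. For 1 gene under this rule, results are not reported here. Relations with Sln were not computed, since it had no counts in 6 libraries.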

Additional observations from a re-analysis of the deposited data

Results flagged for a closer look

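A test for a single far library (the gap to its nearest neighbour as a share of the group's range, in groups of 4) was made for the 8 genes and 3 isoform ratios in both groups, 22 groups in all, of which chance marks about 1 in 20. It marked 3. Control-tagged replicate 2 stood apart in Myl2, at 7684 normalised CPM against 11518 to 12163 in the other 3 control-tagged libraries (gap share 0.881). TK-/- tagged replicate 3 stood apart in Mylk3, at 698.3 normalised CPM against 578.1 to 595.5 (gap share 0.843). TK-/- tagged replicate 4 stood apart in the Myl4 to Myl3 ratio, at 0.0738 counts of Myl4 per 100 counts of Myl3 against 0.0497 to 0.0508 (gap share 0.942), a value that rested on 61 counts of Myl4. Myh7 was not marked in either group, because its libraries were spread along the whole range.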

How the results depend on the processing

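None of the 8 members was called under any of the 17 alternatives, and Myh7b, Myl2 and Myl4 kept their direction in all of them. With a library left out, their log2 fold changes ran from 0.28 to 0.58, from 0.057 to 0.27 and from 0.047 to 0.26. The value for Myh7b was lowest without TK-/- tagged replicate 3, that for Myl2 was 0.057 without either TK-/- tagged replicate 3 or control-tagged replicate 2, and that for Myl4 was lowest without control-tagged replicate 2. The number of genes called was 53 by the likelihood ratio test, 32 by DESeq2 and 23 without a filter on low counts, and 1 to 3 with a library left out. The number of members with an unadjusted p under 0.05 was 0 to 1 with a library left out. Values near 0 changed sign. Leaving out single libraries gave log2 fold changes of -0.040 to 0.19 for Myh6, -0.19 to 0.57 for Myh7, -0.21 to 0.054 for Myl3, -0.26 to 0.39 for Myl7, -0.086 to 0.18 for Mylk3 and -0.25 to 0.055 for Obsl1. Myl7 was at -0.0080 with total counts. The log2 difference in the Myh7 to Myh6 ratio ran from -0.15 to 0.66, and that in the Myl7 to Myl2 ratio from -0.53 to 0.53, with 0.34 by medians. Without the 2 farthest libraries, r was 0.076 for Nppb, 0.66 for Xirp2 and 0.19 for Myl4 with Myl7. Relative to summed cardiomyocyte markers, Myh6 was at -0.030 and Mylk3 at -0.049. Libraries with the same number had correlated deviations of -0.055 to 0.34, and those with different numbers of -0.49 to 0.30. What the numbers mark is not given in the sources used here, and these values do not settle whether they pair libraries. With the replicate block 1 gene and 0 members were called. The cause of these changes was not tested. Counts were low for Myl7, Myl4 and the microRNA hairpin genes.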
